A study of Homo sapiens with 12 samples.

Results

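The genes that carry, sense and oxidise butyrate were followed in K562 cells, a human erythroleukaemia line that takes on erythroid features when given sodium butyrate. The set was chosen by symbol and holds 10 of the 28278 genes in the count table. It comprises the monocarboxylate carriers SLC16A1, SLC16A3 and SLC16A7, the carrier partner BSG, the receptor FFAR2 and the enzymes ACSS2, ACADS, ECHS1, HADH and ACAT1. All 10 symbols were found, and 8 passed the filter on low counts. The 4 groups, of 3 libraries each, were WT cells and HRG1-KO cells, either untreated or given 0.75 mM sodium butyrate. HRG1 is a heme transporter encoded by SLC48A1. The first dose was given 24 h after plating and the second 48 h later, with collection 6 h after that. The series places the cells at day 8 of differentiation. Counted from plating, these hours do not reach day 8, and the starting point of that day is not given here. For the untreated libraries only the day is listed. All groups are the same cell line in the same medium, and how the knockout was made and how many clones it represents are not given in the sources used here.

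Butyrate is a short-chain fatty acid that crosses the plasma membrane as a monocarboxylate, together with a proton, through carriers of the SLC16 family. Basigin, the product of BSG, is the single-pass glycoprotein that brings the carriers encoded by SLC16A1 (MCT1) and SLC16A3 (MCT4) to the cell surface. Inside the cell, butyrate inhibits histone deacetylases, and it can also be joined to coenzyme A and burned in mitochondria. Butyryl-CoA is then oxidised by the enzymes encoded by ACADS, ECHS1, HADH and ACAT1, in that order, to acetyl-CoA. Colonocytes are known for using butyrate as a main fuel, and in erythroleukaemia lines it is known as an inducer of globin synthesis.

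Library totals ranged from 19963594 to 30348538 counts, and a count of 3, used as the limit of detection, corresponded to 0.0953 to 0.162 CPM (each count scaled to the TMM-adjusted total of its library). SLC48A1 lay at 73.7 ± 8.42 CPM (SD, n = 3) in WT cells without butyrate and 67.8 ± 13.9 with it, against 5.94 ± 2.74 and 8.03 ± 2.04 in KO cells, and the genotypes did not overlap. All 11 erythroid markers examined were above the limit in all 12 libraries, with a summed level of 8475 to 18500 CPM without butyrate and 26750 to 64440 with it in WT, and of 4088 to 7057 and 4952 to 7713 in KO. Of the lists for other cells, the 4 fibroblast genes summed to 2.17 to 5.12 CPM in untreated and 44.0 to 157 CPM in treated libraries, nearly all of it COL1A1, while COL1A2 was at 0 in all 3 untreated KO libraries. The epithelial list summed to 22.5 to 183 CPM, from EPCAM and, in WT cells, KRT19, with KRT5 at 0 throughout. The T cell, B cell, colonocyte and hepatocyte lists stayed at or below 15.5, 13.03, 9.28 and 0.605 CPM. The part of these marker differences in the results was not tested. The ribosomal RNA gene RNA28SN5 took 0.673% to 5.63% of counts and took its highest share in replicate 1 of every group. Nothing in the labels says that the replicates were separate cultures, so p-values measure the spread between these libraries, which may be technical. In bulk RNA, fewer cells expressing a gene and less of its RNA per cell cannot be told apart.

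In the fit with no replicate block, the genes called were the carrier SLC16A3 and the carrier partner BSG. SLC16A3 rose with butyrate in KO cells and was higher in treated KO than in treated WT cells, and BSG was higher in KO than in WT cells with and without butyrate. With the replicate number as a block, edgeR also called the enzyme genes ACADS (butyrate in WT, adjusted p 0.0131; KO against WT untreated, 0.0158), ACSS2 (untreated, 0.00299) and HADH (untreated, 0.0498), which took the calls from 0 to 1 for butyrate in WT and from 1 to 4 for KO against WT in untreated cells. The block raised the calls over all tested genes as well, from 372 to 1361 for butyrate in WT. For KO against WT in untreated cells they went from 3574 to 5217, so the added calls describe single genes. With edgeR, a gene was called when its adjusted p fell below 0.05. For butyrate in WT, 0 of 8 tested genes were called, beside 2.35% of all 15805 tested genes (1.8% higher and 0.55% lower); 4 of the 8 had an unadjusted p under 0.05, and DESeq2 called 0. For butyrate in KO, 1 of 8 was called (higher) against 3.4% of all tested genes (2.8% higher and 0.595% lower), with 2 at an unadjusted p under 0.05 and 1 in DESeq2. For KO against WT, 1 of 8 was called in untreated cells against 22.6% of all tested genes (11.7% higher and 10.9% lower), and 2 of 8 in treated cells against 19% (10.1% higher and 8.89% lower), every one of them higher in KO. In untreated cells 3 of 8 had an unadjusted p under 0.05 and DESeq2 called 2, adding ACSS2 (DESeq2 adjusted p 0.0187); in treated cells both counts were 2. The genotype counts are near that background and describe single genes rather than the set. The interaction term, the response of KO cells less the response of WT cells, called 0 of 8 and 0% of all tested genes in edgeR. Of the 8, 0 had an unadjusted p under 0.05 and 0 were called in DESeq2. Over all genes DESeq2 called 1331 for butyrate in WT, 1538 in KO and 86 for the interaction. For genotype it called 4504 in untreated and 3983 in treated cells. No share of all tested genes is given for unadjusted p, so those counts, here and for the lists below, have no background beside them.

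**Figure D1:**
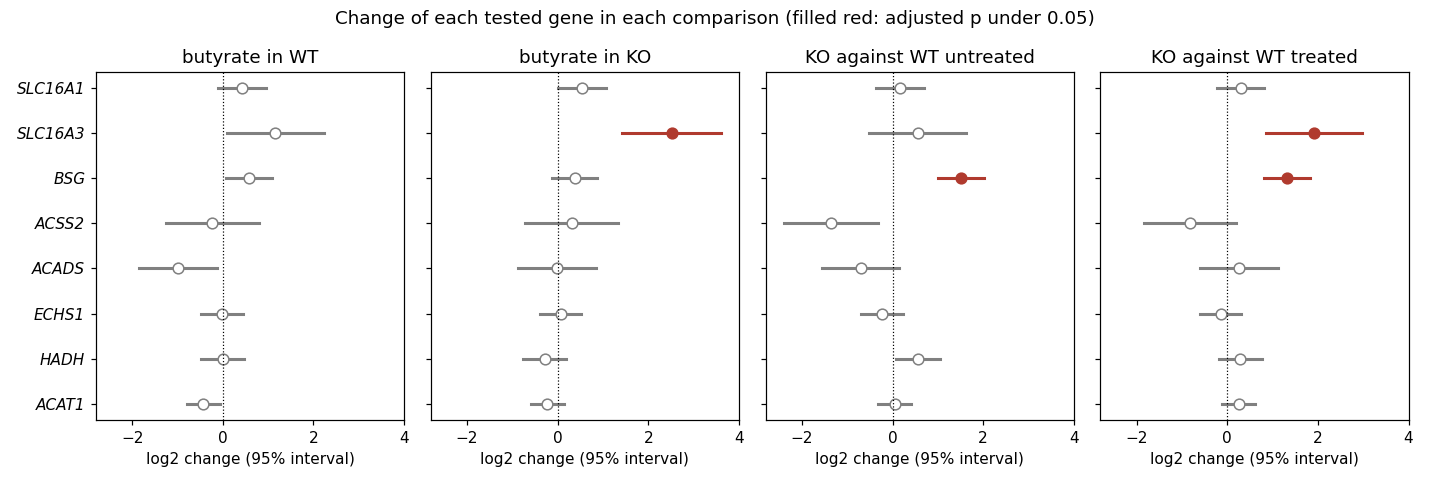
The log2 change of each of the 8 tested genes (horizontal axis, with its 95% confidence interval from the edgeR fit) is plotted in 4 panels, one per comparison, with genes on the vertical axis. Filled red points passed an adjusted p of 0.05: SLC16A3 for butyrate in KO (2.51) and for KO against WT in treated cells (1.91), and BSG for KO against WT in untreated (1.52) and treated cells (1.31).

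The median log2 change of the 8 genes was -0.01 for butyrate in WT, beside 0.02 over all tested genes, and 0.19 in KO, beside 0. It was 0.11 for genotype in untreated cells, beside 0.02, and 0.27 in treated cells, beside -0.002. The 3 libraries of a group lay wholly above or below those of the other for 5 of 8 genes for butyrate in WT, 3 higher and 2 lower, while 21.7% of all tested genes showed such a gap (11.3% higher and 10.4% lower). For butyrate in KO this held for 1 of 8 genes, beside 24.4% of all tested genes (12.6% higher and 11.8% lower). For genotype it held for 3 of 8 in untreated cells, beside 42.3% (22.2% higher and 20.2% lower), and for 3 of 8 in treated cells, beside 33.9% (17.9% higher and 16% lower).

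Levels can be set against each other between genes only per length of transcript, taken here from the longest principal transcript in GENCODE 29. On that scale, in CPM per kb in untreated WT cells, BSG came first at 337 ± 30.6 (SD, n = 3), followed by ECHS1 at 60.1 ± 18.8, SLC16A1 at 57.9 ± 7.30, ACAT1 at 53.6 ± 4.41 and ACSS2 at 47.3 ± 9.25. HADH followed at 33.6 ± 8.76, ACADS at 15.7 ± 2.55 and SLC16A3 at 0.351 ± 0.161. ECHS1, SLC16A1, ACAT1 and ACSS2, neighbours in this order, lay within each other's spread. BSG above ECHS1, and ACADS above SLC16A3, were separated by more than their SDs. SLC16A3 lay below SLC16A1 per kb in the other groups too: 0.788 against 77.4 CPM per kb in WT after butyrate, and in KO 0.515 against 65.1 without and 2.97 against 94.7 with butyrate.

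SLC16A1 encodes MCT1, the carrier through which butyrate, lactate and pyruvate enter many cell types. The gene lies on chromosome 1 (GRCh38.p14, 112911847 to 112956196, minus strand). In replicates 1, 2 and 3 it lay at 220.0, 284 and 256 CPM in untreated WT and at 347, 308 and 360.0 CPM in treated WT. Every treated WT library was above every untreated one, but the log2 change of 0.42 (SE 0.24, 95% interval -0.11 to 0.94) did not pass (edgeR adjusted p 0.400). In KO cells the untreated libraries held 315, 257 and 283 CPM and the treated ones 577, 394 and 273 CPM. The treated KO libraries thus spread widely and overlapped the untreated ones, and the log2 change of 0.54 (SE 0.24, interval 0.02 to 1.07) did not pass (edgeR adjusted p 0.237). Without replicate 1 of treated KO it was 0.22. Between genotypes SLC16A1 differed by 0.17 in untreated and 0.29 in treated cells, with intervals of -0.35 to 0.69 and -0.23 to 0.82 that both include 0. Without that same library, the treated difference was -0.02. The 20 tested genes nearest to SLC16A1 had median log2 changes of 0.58 in WT and 0.52 in KO with butyrate, close to its own values, with 2 called higher in each. Its antisense neighbour SLC16A1-AS1 was at 4.69 to 5.35 CPM in group means and was not called in any of the 4 comparisons between groups.

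SLC16A3 encodes MCT4, a carrier known mainly for exporting lactate from glycolytic cells. Its locus is on chromosome 17 (GRCh38.p14, 82217934 to 82240086, plus strand). Replicates 1, 2 and 3 of untreated WT gave 22, 28 and 77 counts (1.19, 1.30 and 2.59 CPM), and those of treated WT gave 69, 87 and 130 (3.58, 3.71 and 4.13 CPM). All treated WT libraries were above all untreated ones, with a log2 change of 1.16 (SE 0.49, interval 0.09 to 2.22) that did not pass (edgeR adjusted p 0.239). In KO the untreated libraries held 38, 25 and 127 counts (2.03, 1.19 and 4.25 CPM) and the treated ones 332, 563 and 283 counts (15.2, 18.6 and 9.12 CPM). Every treated KO library stood above every other library of the 12.

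The rise of SLC16A3 with butyrate in KO was 2.51 on the log2 scale (SE 0.50, interval 1.42 to 3.61, edgeR adjusted p 0.0227), or 5.71-fold. It passed in 3 of 6 leave-one-out fits, each without 1 library. Without replicate 1 or 2 of untreated KO or replicate 2 of treated KO the edgeR adjusted p was 0.0964, 0.115 and 0.107, with log2 changes of 2.38, 2.18 and 2.28. In treated cells KO exceeded WT by 1.91 (SE 0.49, interval 0.84 to 2.98, edgeR adjusted p 0.0168), again passing in 3 of 6 leave-one-out fits, with 0.0610, 0.0503 and 0.0740 without replicate 2 or 3 of treated WT or replicate 2 of treated KO. In untreated cells the difference of 0.55 (interval -0.51 to 1.62) did not pass (edgeR adjusted p 0.470), and it was -0.12 without replicate 3 of untreated KO. The test of whether the butyrate responses of the genotypes differ gave an interaction of 1.36 (SE 0.69, interval -0.13 to 2.85, edgeR adjusted p 1.00), so a larger response in KO was not shown. Two-sided exact permutation tests gave p 0.1 for both called comparisons of SLC16A3 and both of BSG, the smallest that 3 libraries against 3 allow.

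Because the strand used in counting is not stated, reads of overlapping genes cannot be told apart. CSNK1D, a kinase gene on the opposite strand whose annotation overlaps that of SLC16A3, was at 148 CPM in untreated and 147 CPM in treated KO (log2 change -0.01), and was not called in any of the 4 comparisons between groups. The 20 tested genes nearest to SLC16A3 had a median change of 0.25 for butyrate in KO, with 0 called in either direction, and of -0.15 for KO against WT in treated cells. By Pearson correlation of log2 CPM over the 12 libraries, the genes most like SLC16A3 were TSPAN7 (0.963) and PDZK1IP1 (0.958). The libraries share genotype and treatment groups, so these values describe the pattern and carry no test.

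**Figure D2:**
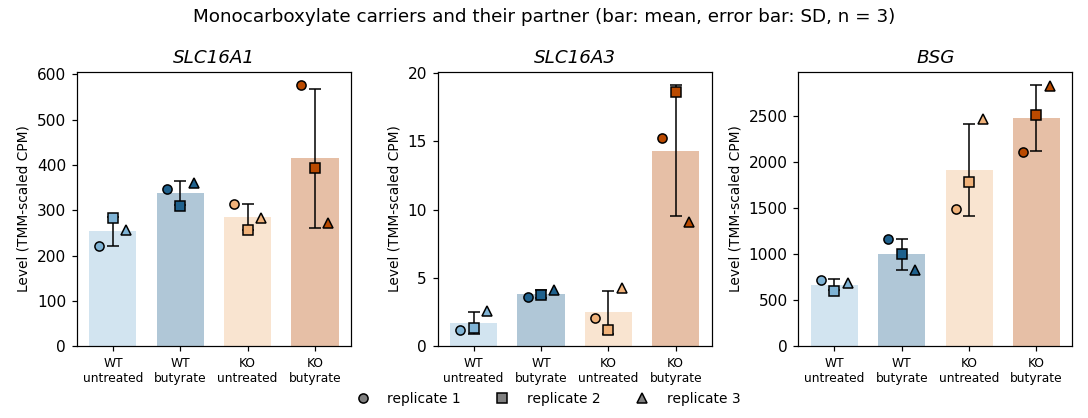
Levels of SLC16A1, SLC16A3 and BSG in TMM-scaled CPM (vertical axes, linear from 0) are plotted for the 4 groups, with circles, squares and triangles for replicates 1, 2 and 3, bars for the mean and error bars for the SD (n = 3). The 3 treated KO libraries of SLC16A3 lie between 9.12 and 18.6 CPM and the other 9 at or below 4.25 CPM; all KO libraries of BSG lie at or above 1487 CPM and all WT libraries at or below 1164 CPM.

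BSG is also the carrier of the Ok blood group antigen and is known as CD147. It lies on chromosome 19 (GRCh38.p14, 571283 to 583493, plus strand). Untreated WT libraries held 714, 598 and 687 CPM in replicates 1, 2 and 3, and treated WT 1164, 995 and 829 CPM. Untreated KO held 1487, 1779 and 2463 CPM and treated KO 2101, 2506 and 2817 CPM. The genotypes did not overlap in any treatment, and the highest WT library lay below the lowest KO library.

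KO exceeded WT in BSG by 1.52 on the log2 scale in untreated cells (SE 0.24, interval 1.01 to 2.03, edgeR adjusted p 0.000588), or 2.87-fold. In treated cells the excess was 1.31 (SE 0.23, interval 0.81 to 1.82, edgeR adjusted p 0.00196), or 2.48-fold. Both held in each of the 6 leave-one-out fits, with values from 1.26 to 1.67 and from 1.18 to 1.43. The other tested genes of chromosome 19, 1149 of them, had a median genotype difference of -0.05 in untreated and -0.03 in treated cells, and the 20 nearest tested genes had medians of 0.08 and 0.14. Of these 20 neighbours, 2 were called higher and 2 lower in untreated cells, and 1 higher and 2 lower in treated cells.

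For butyrate, BSG passed in neither genotype. Treated WT libraries were all above untreated ones, with a log2 change of 0.58 (SE 0.23, interval 0.08 to 1.08) that did not pass (edgeR adjusted p 0.209). The treated and untreated KO libraries overlapped, and the change of 0.37 (interval -0.13 to 0.87) did not pass (edgeR adjusted p 0.401). The interaction was -0.21 (interval -0.91 to 0.50, edgeR adjusted p 1.00). The genes whose levels followed BSG most closely over the 12 libraries were GFRA3 (Pearson r 0.983), NPW (0.983) and CPVL (0.979), again as a description.

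SLC16A7 encodes MCT2, a carrier of high affinity, and FFAR2 encodes a G protein-coupled receptor for short-chain fatty acids, also called GPR43. SLC16A7, on chromosome 12 (GRCh38.p14, 59596029 to 59789841, plus strand), had 0 counts in all 12 libraries, which allows up to 3 counts in each, or 0.162 CPM in the shallowest. FFAR2, on chromosome 19 (35448257 to 35451767, plus strand), had 0, 5 and 1 counts in WT without butyrate and 0, 0 and 11 with it. In KO it had 0, 0 and 2 without butyrate and 2, 0 and 0 with it. It exceeded the limit of 3 counts in replicate 2 of untreated WT and replicate 3 of treated WT and in no other library. At this depth neither gene could be compared between groups. Of the 6 other receptors of the kind, FFAR3, HCAR1, HCAR2, HCAR3, OR51E1 and OR51E2, 0 passed the filter, and the highest count in any library was 10, in HCAR2.

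Promoter windows from RefSeq (GRCh38.p14, 250 bases before to 50 after one annotated start) were matched for 9 of the 10 genes, all but SLC16A1. The windows of both called genes and of the undetected SLC16A7 and scarcely detected FFAR2 are shown, each 5′ to 3′ on the gene's plus strand. Those of BSG and FFAR2 cover the first base of the annotated gene. Those of SLC16A7 and SLC16A3 lie inside the gene, downstream of its first base (59596029 and 82217934). The sequence at the outermost start of these 2 genes is thus not shown, and any relation of the windows to detection was not tested. Capitals mark 4 motifs searched on both strands, none of which overlaps another here. One motif was the GC box (GGGCGG). Another, the site of many basic helix-loop-helix factors, was the E-box (CACGTG). The CCAAT box was searched by the letters in its name. The last, found at a minority of human promoters, was the TATA box (TATAAA).
SLC16A3, chr17:82228185-82228484: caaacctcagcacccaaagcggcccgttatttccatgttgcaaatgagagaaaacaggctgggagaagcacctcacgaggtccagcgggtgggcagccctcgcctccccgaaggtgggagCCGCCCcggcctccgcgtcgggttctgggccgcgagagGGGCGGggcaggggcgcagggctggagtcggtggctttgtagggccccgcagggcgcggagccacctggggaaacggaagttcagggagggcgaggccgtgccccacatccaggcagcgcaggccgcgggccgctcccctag
BSG, chr19:571033-571332: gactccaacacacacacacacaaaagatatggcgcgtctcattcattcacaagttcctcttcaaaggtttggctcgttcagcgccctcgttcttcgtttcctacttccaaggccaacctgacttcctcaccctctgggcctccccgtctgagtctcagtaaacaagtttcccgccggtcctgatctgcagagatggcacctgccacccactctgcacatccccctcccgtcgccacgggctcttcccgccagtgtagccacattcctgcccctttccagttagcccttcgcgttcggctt
SLC16A7, chr12:59689120-59689419: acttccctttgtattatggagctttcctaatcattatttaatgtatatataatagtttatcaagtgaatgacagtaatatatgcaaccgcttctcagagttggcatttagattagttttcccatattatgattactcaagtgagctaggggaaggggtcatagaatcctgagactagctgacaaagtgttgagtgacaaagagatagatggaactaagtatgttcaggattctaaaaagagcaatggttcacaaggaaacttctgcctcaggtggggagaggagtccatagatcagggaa
FFAR2, chr19:35448007-35448306: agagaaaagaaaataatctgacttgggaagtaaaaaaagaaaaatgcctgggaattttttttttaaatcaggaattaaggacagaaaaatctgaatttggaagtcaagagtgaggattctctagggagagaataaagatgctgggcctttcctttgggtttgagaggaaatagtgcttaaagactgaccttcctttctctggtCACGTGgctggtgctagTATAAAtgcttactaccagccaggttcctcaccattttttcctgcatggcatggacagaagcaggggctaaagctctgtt
The GC content of these windows was 70.0% for SLC16A3, 56.7% for BSG, 38.0% for SLC16A7 and 40.3% for FFAR2, beside a median of 58.7% over all 35116 windows. SLC16A3 held 2 GC boxes, a motif found in 45.0% of all windows, and BSG held 0 of the 4 motifs. FFAR2 held 1 E-box (in 7.26% of all windows) and 1 TATA box (in 11.5%), and SLC16A7 held 0 of the 4. The windows of the 5 enzyme genes had a GC content from 55.3% in ACSS2 to 78.0% in ECHS1, with 1 to 6 GC boxes. That of ACAT1 also lay inside its annotated gene. These matches describe letters within the windows and are not evidence of binding.

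ACSS2 encodes the acetyl-CoA synthetase of cytosol and nucleus, which activates acetate. The gene is on chromosome 20 (GRCh38.p14, 34874989 to 34927959, plus strand). Untreated WT libraries held 123, 135 and 177 CPM in replicates 1, 2 and 3 and untreated KO 47.7, 49.7 and 72.3 CPM. The groups did not overlap, and KO was lower by a log2 difference of -1.36 (SE 0.48, interval -2.39 to -0.32), which just missed the threshold (edgeR adjusted p 0.0594). It passed when the replicate number was added as a block (-1.37, edgeR adjusted p 0.00299) and in 4 of the 7 other settings of scaling, filter, tool or library set, but in 0 of 6 leave-one-out fits (edgeR adjusted p 0.0716 to 0.167). In treated cells WT held 46.5, 123 and 202 CPM and KO 32.2, 72.9 and 105 CPM, overlapping ranges with a difference of -0.82 (interval -1.85 to 0.20, edgeR adjusted p 0.264). Butyrate gave changes of -0.23 in WT and 0.31 in KO, with intervals of -1.25 to 0.79 and -0.71 to 1.33, and the sign in WT turned to 0.15 without replicate 1 of treated WT. GGT7, which overlaps ACSS2 on the other strand, was at 38.8 CPM in untreated WT and 29.3 CPM in untreated KO and was not called in any of the 4 comparisons between groups.

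ACADS encodes short-chain acyl-CoA dehydrogenase, which takes butyryl-CoA to crotonyl-CoA and so opens the oxidation of butyrate. It lies on chromosome 12 (GRCh38.p14, 120725826 to 120740008, plus strand). Untreated WT libraries held 25.0, 32.8 and 34.2 CPM in replicates 1, 2 and 3, and treated WT 8.40, 16.5 and 21.6 CPM. All treated WT libraries lay below all untreated ones, with a log2 change of -0.98 (SE 0.40, interval -1.85 to -0.12) that did not pass without a block (edgeR adjusted p 0.218) and passed with the replicate block (-1.08, edgeR adjusted p 0.0131). In KO cells the untreated libraries held 12.4, 15.7 and 28.2 CPM and the treated ones 12.03, 18.2 and 25.6 CPM. These ranges overlapped almost fully, with a change of -0.01 (interval -0.87 to 0.84, edgeR adjusted p 0.997).

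Between genotypes, ACADS in untreated cells differed between KO and WT by -0.71 (interval -1.56 to 0.15, edgeR adjusted p 0.233), and the replicate block gave -0.79 with an edgeR adjusted p of 0.0158. In treated cells the difference was 0.26 (interval -0.60 to 1.12, edgeR adjusted p 0.712). The interaction was 0.97 (interval -0.25 to 2.18) and was not called (edgeR adjusted p 1.00). Replicate 1 was the lowest and replicate 3 the highest in all 4 groups for both ACADS and ACSS2. RNA28SN5 took its highest share in replicate 1 and its lowest in replicate 3 of all 4 groups, and the part of this in the values of ACADS and ACSS2 was not tested.

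**Figure D3:**
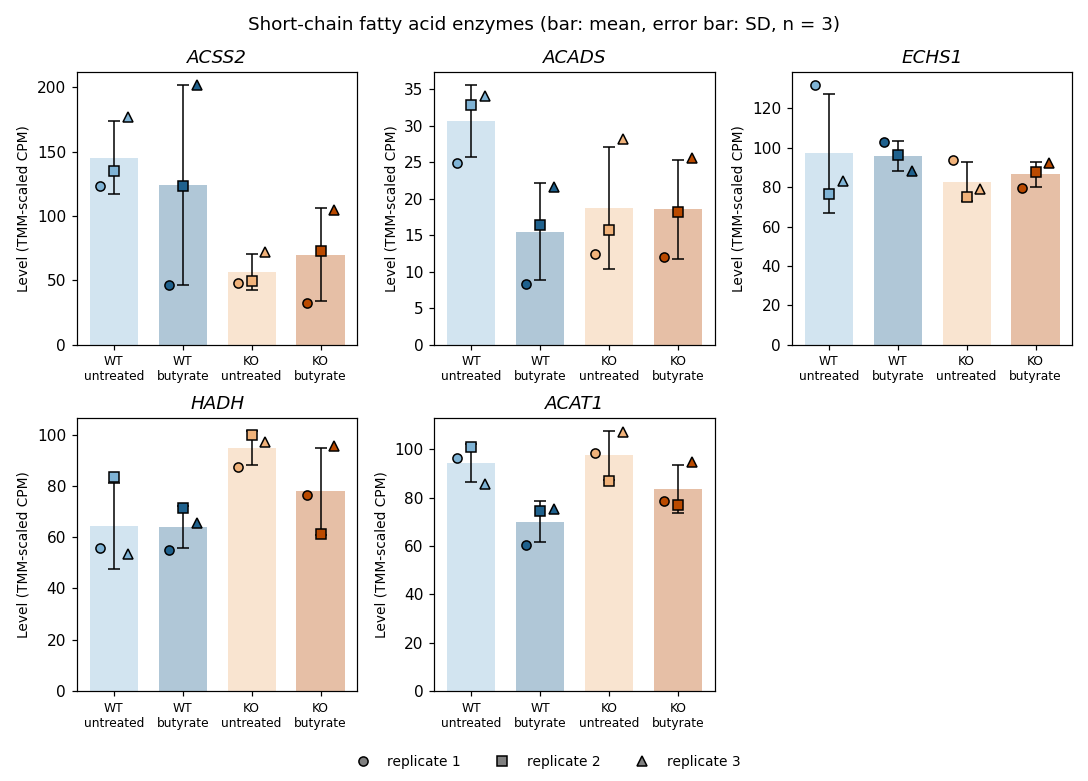
Levels of the 5 enzyme genes in TMM-scaled CPM (vertical axes, linear from 0) are plotted by group, with circles, squares and triangles for replicates 1, 2 and 3, bars for the mean and error bars for the SD (n = 3). ACSS2 is lower in untreated KO (47.7 to 72.3 CPM) than in untreated WT (123 to 177 CPM), and ACADS is lower in treated WT (8.40 to 21.6 CPM) than in untreated WT (25.0 to 34.2 CPM).

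ECHS1 encodes enoyl-CoA hydratase, the next step after ACADS. Its position is chromosome 10 (GRCh38.p14, 133362485 to 133373354, minus strand). Its group means were 97.2 ± 30.4 CPM (SD, n = 3) in WT without butyrate and 96.0 ± 7.51 with it, and 82.8 ± 9.82 and 86.6 ± 6.30 in KO. The wide spread in untreated WT came from replicate 1 at 132 CPM, the others being at 76.5 and 83.0 CPM. The log2 changes were -0.02 and 0.07 for butyrate and -0.23 and -0.15 for genotype, and the intervals of the butyrate changes, -0.47 to 0.44 in WT and -0.39 to 0.52 in KO, both include 0.

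HADH encodes the mitochondrial 3-hydroxyacyl-CoA dehydrogenase, which forms acetoacetyl-CoA from the product of ECHS1. It lies on chromosome 4 (GRCh38.p14, 107989889 to 108035171, plus strand). Untreated WT held 55.8, 83.5 and 53.3 CPM in replicates 1, 2 and 3 and untreated KO 87.4, 99.8 and 97.3 CPM. All untreated KO libraries were above all untreated WT ones, and the log2 difference of 0.56 (SE 0.22, interval 0.09 to 1.04) did not pass (edgeR adjusted p 0.0861), while the replicate block brought it to 0.0498. The 20 nearest tested genes had a median difference of 0.26 in the same comparison, with 3 called higher and 1 lower in KO. Without replicate 2 of untreated WT the difference was 0.80 and passed (edgeR adjusted p 0.0312). In treated cells WT held 55.0, 71.3 and 65.4 CPM and KO 76.6, 61.4 and 95.5 CPM, overlapping ranges that differed by 0.28 (edgeR adjusted p 0.423). Butyrate gave -0.01 in WT and -0.28 in KO (edgeR adjusted p 0.999 and 0.512).

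ACAT1 encodes the mitochondrial thiolase that splits acetoacetyl-CoA into acetyl-CoA and also acts in ketone body use. It lies on chromosome 11 (GRCh38.p14, 108116705 to 108147603, plus strand). Untreated WT held 96.3, 101 and 85.8 CPM in replicates 1, 2 and 3 and treated WT 60.2, 74.6 and 75.5 CPM, so that all treated libraries lay below the untreated ones. The log2 change was -0.43 (SE 0.17, interval -0.80 to -0.06) and did not pass (edgeR adjusted p 0.209). In KO the untreated libraries held 98.5, 87.0 and 107 CPM and the treated ones 78.7, 76.8 and 94.8 CPM, a change of -0.22 (interval -0.59 to 0.14, edgeR adjusted p 0.503). ACAT1 was the enzyme estimated most tightly, its SE of 0.17 allowing genotype differences of -0.32 to 0.42 in untreated and -0.12 to 0.62 in treated cells.

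Other genes of the same routes were read from 6 lists, with counts of calls from fits without the replicate block. Over all tested genes edgeR called 2.35% for butyrate in WT and 3.4% in KO, the background for the butyrate counts of these lists. Of 11 other monocarboxylate and short-chain fatty acid transporter genes, 8 were tested; 0 were called for butyrate in either genotype (0 at an unadjusted p under 0.05, and 0 in DESeq2), while in KO against WT 3 were higher and 2 lower in untreated cells, and the same counts held in treated cells. Over all tested genes 11.7% were called higher and 10.9% lower in untreated cells, and 10.1% and 8.89% in treated cells. The 2 lower genes were MPC1 and MPC2, subunits of the mitochondrial pyruvate carrier. MPC2 held 139, 128 and 127 CPM in untreated WT (replicates 1, 2 and 3) and 34.3, 14.2 and 16.4 CPM in untreated KO. KO was lower by a log2 difference of -2.60 (SE 0.29, edgeR adjusted p 4.94e-05) in untreated and -2.33 (SE 0.28, edgeR adjusted p 0.00014) in treated cells. MPC1 averaged 69.9 ± 19.7 CPM in WT and 28.9 ± 11.5 CPM in KO without butyrate (SD, n = 3), a difference of -1.28 (edgeR adjusted p 0.00723), and differed by -1.18 in treated cells (edgeR adjusted p 0.0133). Both genes held in each of the 6 leave-one-out fits in each setting. DCAF6, which overlaps MPC2 in the annotation, was at 96.1 CPM in untreated WT and 86.1 in untreated KO.

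The 3 transporter genes higher in KO were NPTN, SLC16A6 and SLC5A12. NPTN, which encodes neuroplastin, a relative of basigin, was at 28.2 ± 1.23 CPM in untreated WT and 44.1 ± 4.96 in untreated KO (SD, n = 3), a log2 difference of 0.64 (edgeR adjusted p 0.0122). It passed in 4 of 6 leave-one-out fits in untreated cells, and in treated cells, where the difference was 0.59 (edgeR adjusted p 0.0218), in 2 of 6. Without HRG1-KO control replicate 2 the untreated value was an edgeR adjusted p of 0.0683, and without replicate 2 of treated KO the treated one was 0.0745. SLC16A6, a carrier of the same family, was at 0.459 ± 0.290 CPM in untreated WT and 3.90 ± 1.24 in untreated KO (SD, n = 3), a log2 difference of 3.06 (edgeR adjusted p 0.0049). In treated cells it differed by 2.12 (edgeR adjusted p 0.0327), passed in 2 of 6 leave-one-out fits and reached 0.122 without replicate 2 of treated WT. ARSG, which overlaps SLC16A6, differed by 1.37 in untreated cells (edgeR adjusted p 0.0341). SLC5A12, a sodium-coupled monocarboxylate transporter, had 0 counts in untreated WT and 0.882 ± 0.473 CPM in untreated KO. By the KO mean this was at least 6.58-fold higher against the limit of 3 counts per library. In treated cells the mean of KO was at least 9.20-fold higher on the same scale. Treated KO spread widely, with 4, 59 and 42 counts in replicates 1, 2 and 3, the first just above the limit. SLC5A12 reached the filter's 0.445 CPM in 0 WT and 4 KO libraries, so it was tested only because KO was high. Its calls, counted among the 3 higher genes with and without butyrate, are given as a description.

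Of 10 other acyl-CoA synthetase genes of short and medium chains, 6 were tested. In edgeR, butyrate raised 1 of the 6, ACSS1, in each genotype, and in KO against WT 3 were lower in untreated and 2 in treated cells. Over all tested genes butyrate raised 1.8% in WT and 2.8% in KO, and KO was lower in 10.9% without and 8.89% with butyrate. The butyrate counts rest on ACSS1 alone, and the genotype counts include ACSS1 and, without butyrate, ACSM4. Both genes passed the filter only through high libraries, as set out below, so these counts are no result about the list. Of the lower genes, ACSM3 alone reached the filter's 0.445 CPM in all 6 WT and all 6 KO libraries. DESeq2 called 2 for butyrate in WT, 1 in KO, and 3 each for genotype in untreated and treated cells. In the same order, 2, 1, 4 and 3 had an unadjusted p under 0.05. ACSS1, the mitochondrial acetyl-CoA synthetase, was counted 9, 8 and 26 times in replicates 1, 2 and 3 of untreated WT and 82, 113 and 150 times in treated WT. The mean was 0.578 ± 0.263 CPM untreated and 4.61 ± 0.315 CPM treated (SD, n = 3), and ACSS1 rose by 2.97 (log2, SE 0.59, edgeR adjusted p 0.0322). This passed in 1 of 6 leave-one-out fits, the edgeR adjusted p reaching 0.138 without replicate 2 of untreated WT. In KO it went from 0 counts in all untreated libraries to 12, 32 and 15 counts, at least 5.18-fold higher (edgeR adjusted p 0.00773), and this passed in all 6 fits. ACSS1 reached the filter's 0.445 CPM in 5 WT and 3 KO libraries, those of KO all treated. It was tested only because treated libraries were high, so its calls for butyrate and for genotype are given as a description.

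ACSM3, a mitochondrial medium-chain acyl-CoA synthetase, was lower in KO than in WT cells with and without butyrate. It held 404, 511 and 656 CPM in untreated WT (replicates 1, 2 and 3) and 12.9, 22.1 and 59.3 CPM in untreated KO. The log2 difference was -4.05 (SE 0.51, edgeR adjusted p 0.000119). In treated cells WT held 236, 403 and 475 CPM and KO 46.3, 53.8 and 68.0 CPM, a difference of -2.73 (SE 0.48, edgeR adjusted p 0.00172). Both held in each of the 6 leave-one-out fits, with values from -4.93 to -3.68 and from -2.98 to -2.53. Its interaction of 1.33 was not called (edgeR adjusted p 1.00). THUMPD1, one of 3 genes whose annotation overlaps ACSM3, differed by -1.19 in untreated cells (edgeR adjusted p 0.0492); ERI2 and ACSM1 were not called. The third gene lower in untreated KO was ACSM4, at 1.35 ± 0.137 CPM in untreated WT and 0.0557 ± 0.0965 in untreated KO (SD, n = 3). It reached the filter's 0.445 CPM in 6 WT and 0 KO libraries, so it was tested only because WT was high, and its call is likewise a description. ACSS1, also as a description, was at least 4.29-fold lower in untreated KO and differed by -2.71 in treated cells (edgeR adjusted p 0.00844).

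**Figure D4:**
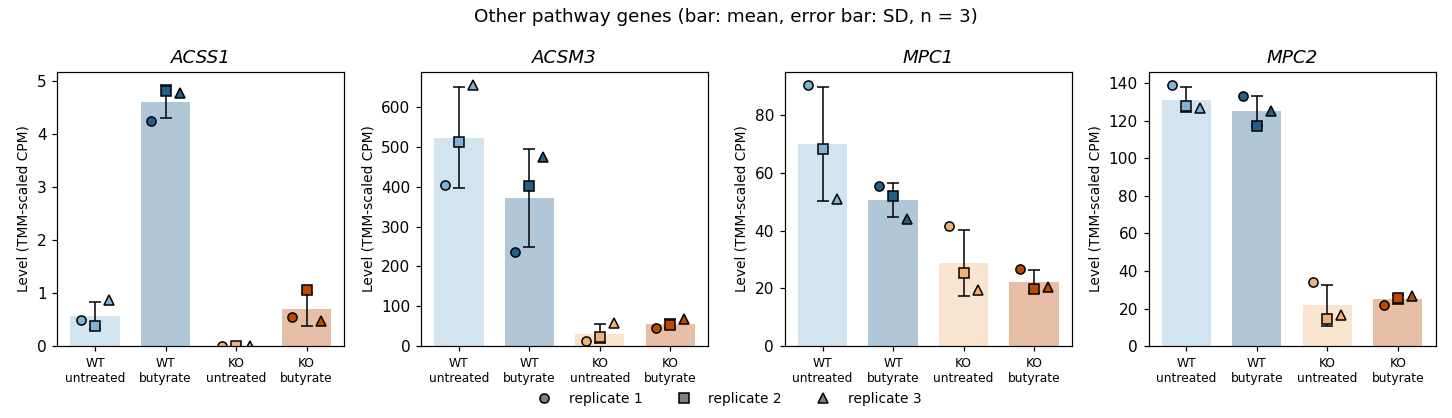
Levels of ACSS1, ACSM3, MPC1 and MPC2 in TMM-scaled CPM (vertical axes, linear from 0) are plotted by group, with circles, squares and triangles for replicates 1, 2 and 3, bars for the mean and error bars for the SD (n = 3). ACSM3 and MPC2 are low in all 6 KO libraries, and ACSS1 is highest in treated WT, at 4.61 ± 0.315 CPM.

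Of 19 other mitochondrial beta-oxidation genes 17 were tested, and 0 were called for butyrate in either genotype by edgeR; 3 in WT and 2 in KO had an unadjusted p under 0.05, and DESeq2 called 1 and 0. In KO against WT, 2 of 17 were higher in untreated cells, near the 11.7% of all tested genes and so no result about the list. They were CPT2 (log2 difference 0.97, edgeR adjusted p 0.0279) and ACAD9 (0.84, edgeR adjusted p 0.0464). Each passed in 1 of 6 leave-one-out fits, with the highest edgeR adjusted p of 0.115 for CPT2 without replicate 2 and 0.175 for ACAD9 without replicate 1 of untreated KO. Without the libraries numbered 1 they stood at 0.0636 and 0.0670. In treated cells 0 were called by edgeR, 4 had an unadjusted p under 0.05, and DESeq2 called 2. The list's median change was -0.15 for butyrate in WT and -0.17 in KO, beside 0.02 and 0 over all tested genes.

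Of 8 ketone body and acetoacetyl-CoA genes 6 were tested. Butyrate gave medians of -0.72 in WT and -0.57 in KO, beside 0.02 and 0 over all tested genes, with 0 called by edgeR in each. In each genotype 3 had an unadjusted p under 0.05, and DESeq2 called 1 in WT and 0 in KO. BDH2, a cytosolic dehydrogenase first described as acting on 3-hydroxybutyrate, was higher in KO, at 26.4 ± 5.89 against 11.3 ± 0.967 CPM in untreated cells (SD, n = 3; log2 difference 1.23, edgeR adjusted p 0.00462) and by 1.40 in treated cells (edgeR adjusted p 0.0027). BDH2 was the 1 of 6 called for genotype by edgeR, without and with butyrate. Over all tested genes 11.7% and 10.1% were called higher there, so the calls describe a single gene. Reads of BDH2 may be shared with SLC9B2, which overlaps it and was higher in KO by 1.54 and 1.43 in the same comparisons. Of 9 side-branch genes of acetyl-CoA and crotonyl-CoA 8 were tested, with 0 called for butyrate by edgeR or DESeq2 in either genotype and 1 in WT and 3 in KO at an unadjusted p under 0.05. In KO against WT, CROT and ACACB were lower in both settings and CDYL was higher in untreated cells, against 10.9% of all tested genes lower and 11.7% higher without butyrate. With butyrate 8.89% of all tested genes were lower. Of the 8, DESeq2 called 4 in untreated and 3 in treated cells, and 5 and 3 had an unadjusted p under 0.05. CROT and ACACB reached the filter's 0.445 CPM in 6 WT libraries and in 1 and 2 KO libraries, so both were tested only because WT was high and are given as a description. They were the only lower genes of this list, so its counts of lower genes are no result about the list. CROT, the peroxisomal carnitine octanoyltransferase, was at 4.17 ± 1.83 CPM in untreated WT and at or below 2 counts in every untreated KO library, at least 31.0-fold lower. ACACB, the mitochondrial acetyl-CoA carboxylase, was at 3.89 ± 2.40 CPM in untreated WT and 0.321 ± 0.0927 in untreated KO (SD, n = 3), and at 10.7 ± 7.68 and 1.44 ± 1.15 CPM in treated WT and KO. The treated ranges overlapped, with replicate 3 of treated KO at 2.675 CPM and replicate 1 of treated WT at 1.97 CPM. ACACB passed in 5 of 6 leave-one-out fits in untreated cells. In treated cells it passed in 2 of 6, and the edgeR adjusted p reached 0.0957 without replicate 2 of treated KO. CDYL, whose product can hydrate crotonyl-CoA, differed by 0.67 (edgeR adjusted p 0.0247) and passed in 3 of 6 leave-one-out fits, reaching 0.130 without replicate 2 of untreated KO.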

How the data were processed

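RNA sequencing of 12 libraries was taken from 1 deposited table, in which the authors list whole-number read counts by gene symbol; no unit is written in it, and integer values with unequal column totals mark them as raw. Per the submitters' processing notes, FastQC 0.12.1, STAR 2.7.11b and hg38 were used. The counting tool, annotation, strand setting and filters are not given in the sources used here. Columns were matched to samples by library name in the labels, with 0 columns unused.

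Counts were analysed in R 4.3.3 with edgeR 4.0.16: filterByExpr (minimum count 10; 15805 genes kept), TMM scaling, a mean per group over all 12 libraries, the quasi-likelihood F-test and Benjamini-Hochberg adjustment over all tested genes, with a threshold of 0.05 and 5 contrasts. Intervals are 95% intervals of that fit, and log2 CPM for correlations and permutation tests used a prior count of 2. The limit of detection of 3 counts covers counting error only. DESeq2 1.42.0 served as an alternative, beside other scalings, filters, a replicate block and leaving out libraries.

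Libraries with the same replicate number deviated together from their group means (correlation 0.147 to 0.595 over tested genes), which meets the rule used here for paired libraries. For KO against WT in treated cells, differently numbered libraries reached 0.3425, above the lowest same-number value of 0.315. For butyrate in WT these values were close, at 0.1865 and 0.1951. The labels do not say what same-numbered libraries share. The reported fit has no block, and for the tested members of the set blocked values stand beside the results whose call they change. Counts of calls in the other pathway lists are given without the block only. Over all tested genes the block took the butyrate calls from 372 to 1361 in WT and from 537 to 1852 in KO.

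All 10 genes are named; other pathway genes are named where past the threshold in any contrast, and the 3 most correlated genes for each called member, of which 1 is not reported here. Members, lists and tests were chosen with earlier results of these data known. Gene positions and promoters come from RefSeq (GRCh38.p14) and transcript lengths and overlaps from GENCODE 29; the build of the notes is the same.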

Additional observations from a re-analysis of the deposited data

Results flagged for a closer look

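ACADS was singled out because its genotype difference had opposite signs in the 2 settings for all same-numbered libraries. In untreated cells KO minus WT was -1.003, -1.06 and -0.27 on the log2 scale for numbers 1, 2 and 3, and in treated cells it was 0.51, 0.14 and 0.24. The test of the difference, the interaction, gave 0.97 (SE 0.56), with an edgeR adjusted p of 1.00, and it was not called in any of the 12 fits that left out 1 library, where it ranged from 0.68 to 1.39. With the replicate block it was 1.08 (edgeR adjusted p 0.301). Groups of 3 libraries were too small to look for single outlying libraries.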

How the results depend on the processing

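For butyrate in WT, 1 of the 8 tested genes (ACADS) was called with the replicate block, and 0 when any 1 library was left out. For butyrate in KO, leaving out 1 library gave 0 to 1. For KO against WT, untreated cells gave 2 with no filter, with DESeq2, with only the 6 libraries of the contrast and without the libraries numbered 1, 4 with the replicate block, and 1 to 2 with 1 library left out; treated cells gave 1 to 3 with 1 library left out. The replicate block added ACADS to the calls in WT, and ACADS, ACSS2 and HADH in untreated cells, and changed no other call of these genes. Over all tested genes it took the calls from 372 to 1361 for butyrate in WT. For KO against WT in untreated cells it took them from 3574 to 5217.

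Small changes turned sign, and the cause was not tested. For butyrate in WT, HADH was 0.00817 with RLE size factors, 0.0207 by library size alone, 0.0588 with at least 10 counts in every library, 0.00834 in DESeq2 and 0.00646 with only the 6 libraries. ECHS1 was 0.00265 by library size alone, 0.0429 with at least 10 counts, 0.00751 with the replicate block and 0.199 without the libraries numbered 1, where ACSS2 was 0.0431. For butyrate in KO, ACADS was 0.0192 with RLE, 0.108 by library size alone, 0.0604 with at least 10 counts, 0.0194 in DESeq2 and 0.00413 with only the 6 libraries. Without the libraries numbered 1, SLC16A1 was -0.0179 (untreated) and -0.0245 (treated) for genotype and -0.0066 for the interaction.

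With 1 library left out, signs turned within these ranges. For butyrate in WT they were -0.776 to 0.152 for ACSS2, -0.119 to 0.226 for HADH and -0.166 to 0.263 for ECHS1, and in KO -0.305 to 0.410 for ACADS and -0.0947 to 0.645 for ACSS2. For genotype in untreated cells they were -0.121 to 0.989 for SLC16A3, -0.0558 to 0.102 for ACAT1 and -0.375 to 0.0545 for ECHS1. In treated cells they were -0.0200 to 0.509 for SLC16A1 and -0.0495 to 0.555 for ACADS. For the interaction they were -0.191 to 0.365 for SLC16A1, -0.360 to 0.0275 for BSG and -0.202 to 0.227 for ECHS1. Depth limited SLC16A7 and FFAR2, which could not be tested.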
